A study of Mus musculus with 860 samples.

Results

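The 40 genes described here encode the machinery of mitosis and are given by name, with no threshold on a measured value. They are Cdk1, Ccnb1, Ccnb2, Ccna2, Cdc25b, Cdc25c and Cdca3 of mitotic entry, the kinases Aurka, Plk1 and Nek2, the checkpoint and destruction genes Bub1, Bub1b, Bub3, Mad2l1, Ttk, Cdc20 and Ube2c, the kinetochore genes Cenpa, Cenpe, Cenpf and Ndc80, the chromosomal passenger genes Aurkb, Birc5, Cdca8 and Incenp, the spindle genes Tpx2, Kif11, Kif2c, Kif4, Hmmr and Nusap1, the cytokinesis genes Kif20a, Kif20b, Kif23, Anln, Ect2, Prc1 and Racgap1, and Top2a and Mki67 of the chromosomes. All 40 matched 1 gene each among the 46078 genes counted, and all 40 had at least 10 CPM (counts scaled to a total of 1000000) over the kept cells. A gene counts as measured in a comparison at 10 CPM on either side, which left out some of the 40 in comparisons with low levels, where the number measured is given.

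The cells were single cells of the aorta-gonad-mesonephros (AGM) region of mouse embryos, where hematopoietic stem cells (HSCs) first form. Hemogenic endothelium (HE) of the aortic wall gives rise there to intra-aortic hematopoietic clusters (IAHC), and the study asked how Notch signals separate the fates along that path. All embryos carried the Gfi1:tomato reporter, with the strain label CD1/Gf1+, and no agent was given. The groups were E11.5 GFI1+ HE (CD31+cKIT-GFI1+), E11.5 GFI1+ IAHC (CD31+cKIT+GFI1+), E11.5 GFI1- IAHC (CD31+cKIT+GFI1-) and, from E10.5 embryos, GFI1+ HE and GFI1+ IAHC by the same gates. They held 22.2%, 30.97%, 17.4%, 14.1% and 14.97% of the 775 kept cells, and 3 further kept cells, of E10.5 GFI1- IAHC, entered no comparison. Cells were sorted from pooled AGMs in independent experiments, but the labels tie no cell to a pool or embryo. A group was therefore handled as a single sample, and values are described with neither tests nor p-values. Ratios were taken within a batch, the prefix of the cell names (GL53, GL58, GL69 or GL78). A gene is called past 2-fold where each batch used put it 2-fold or more to the same side.

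A dividing cell makes most of these proteins only as it nears division. Cdk1 with its cyclins starts mitosis, Plk1 and the Aurora kinases build the spindle and mature the centrosomes, kinetochores tie each chromosome to the spindle, and the spindle checkpoint (Bub1, Bub1b, Bub3, Mad2l1, Ttk) holds Cdc20 back until all chromosomes are attached. Cdc20 and Ube2c then let the anaphase-promoting complex (APC/C) mark cyclins and securin for destruction, and Prc1, Kif23, Racgap1, Ect2 and Anln divide the cell body. Most of the genes are transcribed late in the cycle, and the MuvB complex with B-Myb and FOXM1 is known to act on them through a promoter element named CHR, often with CCAAT boxes bound by NF-Y. While HE becomes IAHC, cells are known to enter cycle.

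Promoters are shown first, since these elements are what many of the 40 genes share that their choice did not use. RefSeq promoter windows of GRCm38.p6, from 250 bases before to 50 after the start, were found for 34 of the 40 genes. No window was used for Aurkb, Kif20a, Ccna2, Tpx2, Cdc25c and Incenp. The windows below cover 130 bases before to 20 after the start of 6 genes, the first pair with the highest levels per length, the next pair with the largest and the last with the smallest ratio of G2/M to G1 cells among genes with 1 window. Capitals mark CHR (TTTGAA or TTCGAA) and CCAAT on either strand.
Cdc20, chr4:118437324-118437473, minus strand: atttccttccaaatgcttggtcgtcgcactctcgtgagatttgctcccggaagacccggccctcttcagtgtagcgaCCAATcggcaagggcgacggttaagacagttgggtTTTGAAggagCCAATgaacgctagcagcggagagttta
Ube2c, chr2:164769799-164769948, plus strand: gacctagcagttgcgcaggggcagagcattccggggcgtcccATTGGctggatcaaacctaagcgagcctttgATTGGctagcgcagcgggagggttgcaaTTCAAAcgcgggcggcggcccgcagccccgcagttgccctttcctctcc
Plk1, chr7:122159305-122159454, plus strand: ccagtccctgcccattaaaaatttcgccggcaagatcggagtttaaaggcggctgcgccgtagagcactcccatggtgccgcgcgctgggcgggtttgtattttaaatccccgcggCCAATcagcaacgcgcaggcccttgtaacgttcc
Nusap1, chr2:119618168-119618317, plus strand: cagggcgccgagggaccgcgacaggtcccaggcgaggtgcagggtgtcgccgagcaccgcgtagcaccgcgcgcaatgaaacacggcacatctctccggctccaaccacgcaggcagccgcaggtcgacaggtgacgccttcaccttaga
Mad2l1, chr6:66535091-66535240, plus strand: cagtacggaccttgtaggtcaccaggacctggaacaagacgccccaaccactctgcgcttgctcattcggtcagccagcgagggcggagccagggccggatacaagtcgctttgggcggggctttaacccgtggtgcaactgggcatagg
Ccnb2, chr9:70421535-70421684, minus strand: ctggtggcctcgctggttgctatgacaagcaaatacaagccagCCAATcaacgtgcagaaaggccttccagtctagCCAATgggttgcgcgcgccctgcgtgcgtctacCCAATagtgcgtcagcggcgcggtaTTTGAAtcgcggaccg

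The CHR of Cdc20 begins 18 bases before the start, between CCAAT boxes that begin 53 and 8 bases before it. That of Ube2c begins 29 bases before the start, downstream of the CCAAT boxes shown, and Ccnb2 held 3 CCAAT boxes ahead of a CHR that begins 4 bases after the start. The CHR of Plk1 begins 30 bases after the start, outside the stretch shown. Nusap1 and Mad2l1 held neither motif in the whole window.
Over the 300-base windows, 28 of the 34 genes (82.4%) held a CHR, against 21.7% of all 27025 genes with a window and 16.1% of the 7515 that reached 10 CPM in these cells. CCAAT was present in 27 of the 34 (79.4%), against 41.1% of all genes and 42.6% of those at 10 CPM. Both were present in 24 of 34 (70.6%), against 8.61% of all genes, and 19 of 34 had at least 2 CCAAT, against 13.3%. In 26 of the 28 genes a CHR began between 50 bases before and 44 after the start. An E2F-like sequence (TTTGGCGC, TTTCGCGC or TTTCCCGC) was found in 1 of 34, in the window of Cdk1, and in 2.12% of all genes. Both strands were searched, each motif was counted apart and overlaps between motifs were kept. A match or its absence is a description of the window only. The ratio of G2/M to G1 cells did not order the genes by CHR: its median was log2 3.52 for the 28 genes with a CHR and 3.48 for the 6 without (Birc5, Ccnb1, Cenpe, Mad2l1, Nek2 and Nusap1), which held both the second highest and the second lowest ratio among the 40, those of Nusap1 and Mad2l1. By CCAAT the median was 3.69 for the 27 genes with it (1.15 to 5.10) and 3.22 for the 7 without (1.87 to 4.64). It was 3.64 for the 24 genes with both motifs and 2.82 for the 3 with neither. These differences were not tested.

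**Figure D1:**
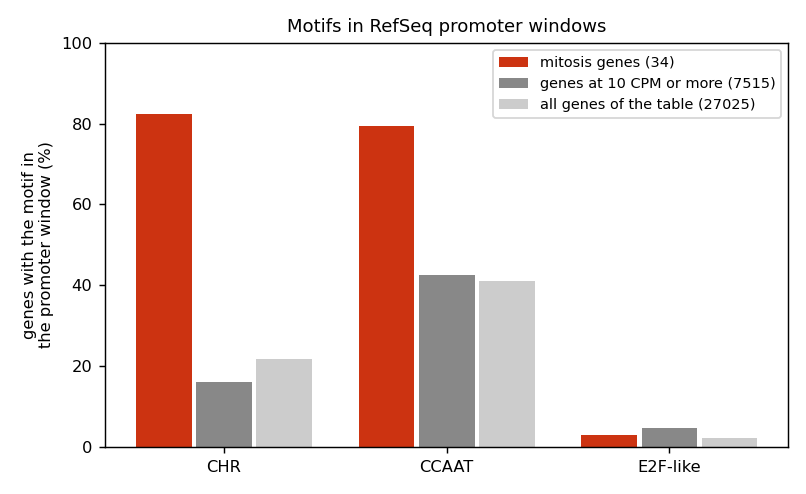
Bars give the percentage of genes whose 300-base RefSeq promoter window holds a CHR, a CCAAT or an E2F-like sequence, for 34 mitosis genes, 7515 genes at 10 CPM or more and all 27025 genes with a window. CHR reached 82.4% of the mitosis genes against 16.1% and 21.7% of the others, CCAAT 79.4% against 42.6% and 41.1%, and the E2F-like sequence 2.94% against 4.62% and 2.12%.

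The 775 kept cells had 134284 to 2296823 counts, with a median of 727732, and the median cell of a group had 6515 to 8660 genes with a read. GL58 stood apart, since its 3 group values of the summed mitosis genes were all above those of GL53, GL69 and GL78. All 6 endothelial markers (Cdh5, Pecam1, Kdr, Tek, Emcn, Esam) were at 10 CPM or more in every group and batch, and 3 to 7 of 7 hematopoietic ones were. Markers of other cells were present in places. The sum of 7 mesenchyme genes was 2056 CPM in E11.5 GFI1- IAHC of GL53 and 5.79 to 95.4 CPM elsewhere, that of 7 megakaryocyte genes reached 2922 CPM in E10.5 HE and 2491 CPM in E11.5 HE, both of GL78, and that of 7 germ cell genes reached 1145 CPM in E11.5 GFI1+ IAHC of GL58. The lowest sums were 5.88 CPM for megakaryocyte and 0.355 CPM for germ cell genes. The highest sums were 730.4 CPM for 7 macrophage, 511 CPM for 7 erythroid and 967 CPM for 5 lymphatic genes, and the lowest were 0, 2.84 and 293.98 CPM. Their part in the results was not tested, and values without the small clusters 6 to 10 are given where they differ.

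Levels between genes were compared per kilobase of exon. Cdc20, the activator of the APC/C, had the highest level at 184.7 CPM per kb, followed by Ube2c, its ubiquitin-conjugating enzyme (111.1), cyclin B2 (Ccnb2, 106.995) and Plk1 (84.4). The lowest were Nek2, a centrosome kinase, at 3.77, Ect2, which activates RhoA for cytokinesis, at 5.88, and the phosphatases Cdc25c (6.34) and Cdc25b (6.37) that switch Cdk1 on. The median of the 40 was 21.7 CPM per kb. Bub3 was seen most widely, with a read in 93.5% of cells, and Cdc25b least, in 22.2%. At 50000 counts per cell these shares were 92.1% and 18.3%, and Bub3 was also the gene seen in most G1 cells (88.9%). Exons of 8 genes, Kif20a, Ube2c, Kif4, Cdc25c, Ccna2, Prc1, Plk1 and Nek2, overlapped an antisense gene over 5% or more of their length, and these libraries do not mark strand.

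The first comparison was between cell cycle phases, which the authors had called with Cyclone from the same counts. Of the 40 genes, 33 are among the 667 genes of the marker pairs that Cyclone reads, so these ratios describe the calls and test nothing. The summed level of the 40 genes was 807 CPM in the median G1 cell, 4462 CPM in the median S cell and 9667 CPM in the median G2/M cell. The interquartile ranges were 466.97 to 1467.55, 3592 to 5823 and 6968 to 13887 CPM, and they did not overlap. A level above 5000 CPM was reached by 2.90% of G1, 42.2% of S and 91.7% of G2/M cells. The median number of the 40 genes with a read was 8 in G1, 31 in S and 37 in G2/M cells. Median depth was similar, with 682401 counts in G1, 749183 in S and 778890 in G2/M cells, while the G2/M cells had more genes with a read (8097 against 6702 in G1).

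All 40 genes were past 2-fold higher in G2/M than in G1 cells in GL53, GL58 and GL78, where 1.86% of 9928 genes were higher, and the median log2 ratio was 3.64. Plk1 had the largest ratio. It stood at 11.6, 14.4 and 8.53 CPM in the G1 cells of GL53, GL58 and GL78 and at 380.7, 516.2 and 380.04 CPM in their G2/M cells, a mean log2 ratio of 5.10 ± 0.20 (SD, n = 3 batches). Every G2/M value lay far above every G1 value. Nusap1, which bundles spindle microtubules, followed at 4.64 ± 0.35, Prc1, which crosslinks the central spindle, at 4.49 ± 0.58, and Kif2c, a microtubule depolymerase of centromeres, at 4.43 ± 0.56. The lowest was Bub3, at 213.2, 216.4 and 195.7 CPM in G1 and 496.7, 492.2 and 407.8 CPM in G2/M cells, a log2 ratio of 1.15 ± 0.08. Bub3 was thus abundant in every phase, with about the same ratio in each batch. Mad2l1 (1.87 ± 0.26), Ccnb2 (2.04 ± 0.42) and Cenpa, the histone H3 variant of centromeres (2.19 ± 0.11), came next. By role the medians were lowest for the chromosomal passenger genes (3.05) and highest for the spindle genes (4.31), and the checkpoint and destruction genes spread from Bub3 (1.15) to Ube2c (4.11).

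The S cells separated the genes by timing. In GL53 and GL78, 37 of the 39 measured genes were past 2-fold higher in S than in G1 cells, where 3.90% of 10232 genes were higher, with a median log2 ratio of 2.26. Kif11, the motor that pushes spindle poles apart, had 4.58 and 4.05 CPM in G1 and 88.7 and 31.9 CPM in S cells, a log2 ratio of 3.36 ± 0.92 (SD, n = 2 batches). Ttk (3.16 ± 1.21), Aurkb (3.05 ± 0.56) and Kif20a (2.99 ± 0.33) were next. Bub3 (0.42 ± 0.23) and Ccnb2 (0.91 ± 0.02) were not past 2-fold, and Cenpa (1.06 ± 0.03) and Kif20b (1.38 ± 0.49) were just past it. From S to G2/M, 23 of 40 genes were past 2-fold higher and none lower, where 1.31% of 9965 genes were higher and 1.68% lower. Cdc25b had the largest ratio: it had 2.24 and 6.27 CPM in G1, 3.63 and 5.05 CPM in S and 75.1 and 37.97 CPM in G2/M cells of GL53 and GL78, so that S cells lay at the G1 level and G2/M cells above both. Its log2 ratio of G2/M to S was 3.36 ± 0.95, ahead of Plk1 (2.45 ± 0.07), Aurka (2.26 ± 0.23) and Nusap1 (2.22 ± 0.00). At the other end stood Mad2l1 (0.23 ± 0.21), Cdca3, an adaptor for Wee1 destruction (0.69 ± 0.51), Bub3 (0.72 ± 0.34) and Ttk (0.74 ± 0.27). Mad2l1 had 152.2 and 86.2 CPM in S and 161.3 and 112.6 CPM in G2/M cells, so its S cells were already near their later level. In the G1 cells of GL58 no read of Cdc25b was found, and its ratio of G2/M to G1 is not given.

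Cyclone was also run again on pairs that hold none of the 40 genes, an alternative chosen after seeing the data. With all pairs the calls matched the deposited ones in 772 of 775 cells. Without the pairs of the 40 genes, 24488 of 28492 pairs were left and 85.8% of calls matched. Of the deposited G1 cells 77.3% stayed in G1, while 64 became S and 22 G2/M, and of the deposited G2/M cells 99.04% stayed. In these new phases 39 of 40 genes were past 2-fold higher in G2/M than in G1, where 2.2% of 9989 genes were higher, Bub3 being the exception at 1.11, 0.98 and 1.03, and the median log2 ratio was 3.81. Plk1 (5.48), Nusap1 (4.92), Hmmr (4.80), a spindle and hyaluronan-binding protein, and Prc1 (4.76) were highest. The S cells changed more. Aurkb (3.36), Ccnb1 (3.04), Prc1 (3.03) and Ccna2 (3.00) now had the highest ratios of S to G1, and Ttk went from 3.16 to 2.23. Ccnb2 was at 1.00, 1.29 and 1.58 in GL53, GL58 and GL78, so it was now 2-fold or more in each, while Cenpa, at 1.21, 0.75 and 1.32, no longer was, and Kif20b had a mean of 2.39. From S to G2/M, Ttk left the low end with 1.16, 1.90 and 1.64 in the same batches, whereas Mad2l1 stayed lowest (0.23) and Cdc25b had the highest mean (4.02). That mean rests on 3.88, 5.94 and 2.25 in GL53, GL58 and GL78, the GL58 value over an S level at or near 0. In GL78 Plk1 (2.69) lay above Cdc25b. The new phases also added GL58 to the ratios with S cells, which had used GL53 and GL78 alone. In GL53 and GL78, Ttk over G1 went from 4.02 and 2.31 to 3.30 and 1.76, and Ccnb2 started from 0.89 and 0.93. Cenpa stayed 2-fold or more in GL53 and GL78, and only GL58 took it below. Kif20b went from 1.73 and 1.04 to 1.76 and 2.13 there, with 3.28 in GL58. The places of Ttk and Ccnb2 thus changed with the calls, while those of Cenpa and Kif20b also reflect the added batch. The 7 genes outside the pairs, Cenpa, Top2a, Kif20a, Hmmr, Kif4, Cenpf and Nek2, had a median of 3.69 with the deposited phases, beside 3.59 for the 33 inside. Within each group and batch with at least 10 cells of both phases, the median ratios of G2/M to G1 cells were 2.66 in E10.5 GFI1+ IAHC and 2.92 in E10.5 GFI1+ HE, both of GL78, and 3.31 to 4.64 in the 7 E11.5 sets.

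**Figure D2:**
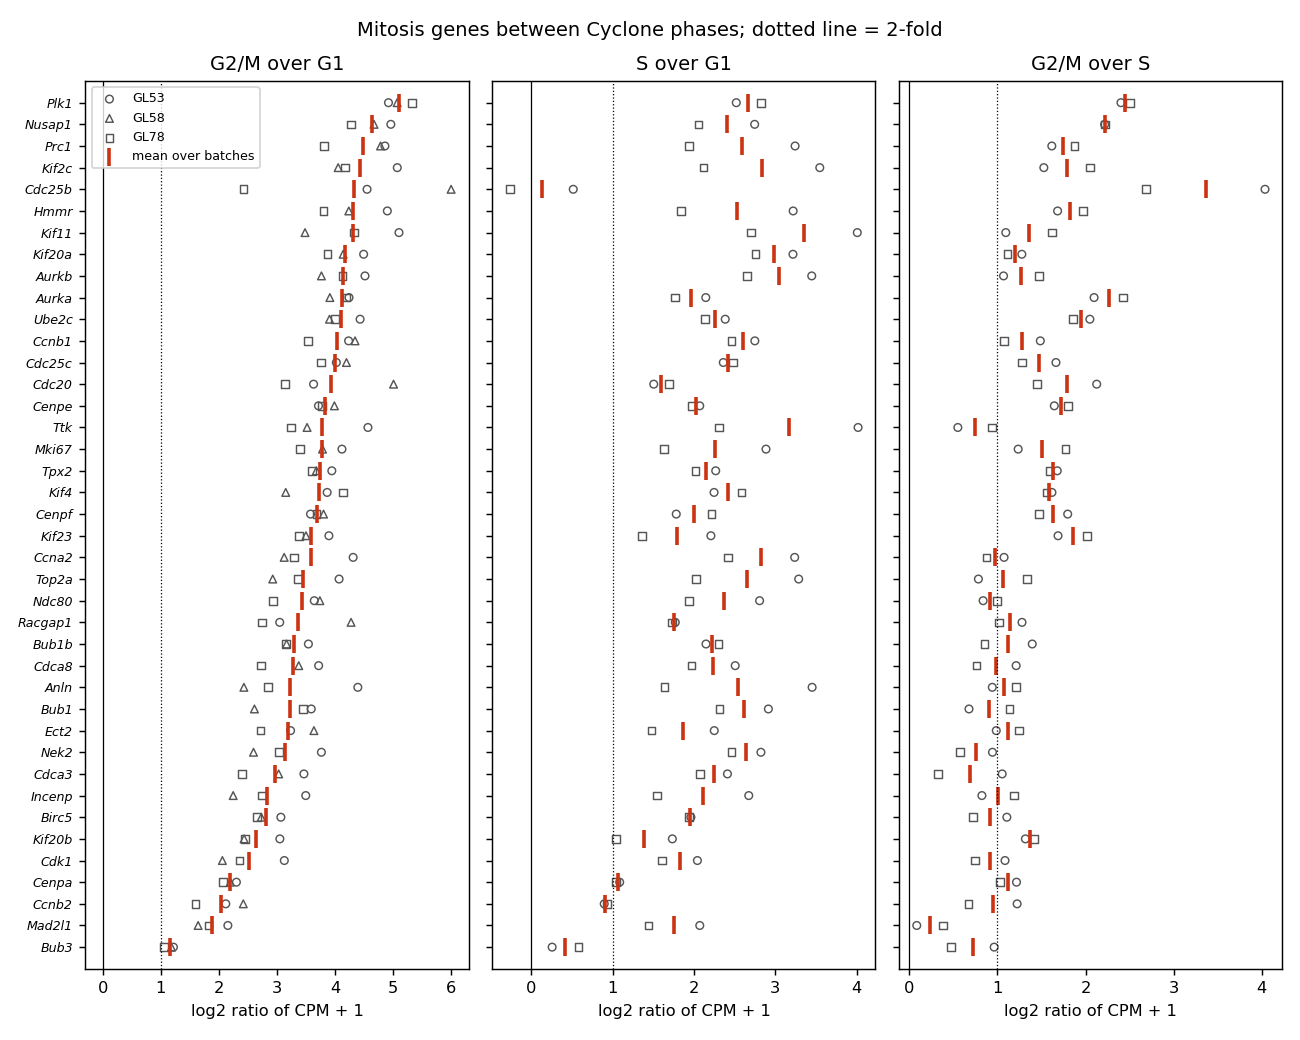
Each row is a gene, ordered by its log2 ratio of G2/M to G1, the x axes give log2 ratios of CPM + 1 for 3 pairs of Cyclone phases, open symbols are batches and red bars their mean. All symbols of the left panel lie right of the 2-fold line, from Bub3 (1.15) to Plk1 (5.10). Cdc25b in S over G1 is drawn although it was under 10 CPM in both phases, and its GL58 value rests on a G1 level of 0.

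Other genes of mitosis from lists of the pathway followed the phases in part. Of 20 measured spindle and cytokinesis genes outside the 40, 15 were past 2-fold higher in G2/M than in G1 cells, with Ckap2l highest (4.44) and Numa1 lowest (-0.18). Of 28 other kinetochore genes 20 were, from Cenpl (3.99) to Cenpt (-0.003), of 8 condensin genes 5, from Ncapg (3.51) to Ncaph2 (0.53), and of 8 genes of separase, securin, shugoshins and APC/C regulators 6, from Sgo2a (3.34) to Mad2l1bp (0.15). None of 14 APC/C subunits was, and their highest was Anapc7 at 0.77. None of 9 cohesin genes was, with Rad21 highest at 1.21 over batches. Of 19 FOXM1, MuvB and DREAM regulators 2 were, with Foxm1 highest at 3.18 and Rb1 lowest at -0.46, and of 11 brakes and phosphatases of mitotic entry 1 was, Mastl at 2.32, with Cdc14a lowest at -0.44. Mastl is the kinase that holds back the phosphatase opposing Cdk1, and Foxm1 a transcription factor of late cell cycle genes. DNA replication and S-phase genes were past 2-fold higher in S than in G1 cells in 21 of 24 and in G2/M than in G1 cells in 2 of 24, and of the 9 measured D-type cyclins and CDK inhibitors none was past 2-fold in either direction between G2/M and G1.

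The second comparison was between the sorted groups, and asked whether HE and IAHC differ in their mitosis genes and whether the level changes with stage. In no comparison was any of the 40 genes past 2-fold in every batch. The summed level was 4188 CPM (exact 95% Poisson interval 4174 to 4202, counting error only), 9268 (9222 to 9314) and 4939 CPM (4915 to 4963) in E11.5 GFI1+ HE of GL53, GL58 and GL78. In E11.5 GFI1+ IAHC it was 5785 (5768 to 5801), 9010 (8972 to 9049) and 4696 CPM (4680 to 4712). HE was thus below IAHC in GL53 and slightly above it in GL58 and GL78, so the order depended on the batch. E11.5 GFI1- IAHC had 5882 (5862 to 5903) and 3973 CPM (3950 to 3996) in GL53 and GL78. At E10.5, GFI1+ HE had 9652 (9606 to 9698) and 5152 CPM (5136 to 5168) in GL58 and GL78, and GFI1+ IAHC 7083 (7053 to 7114) and 6003 CPM (5985 to 6020) in GL69 and GL78. In the 3 groups sampled in GL58 the batches of a group lay further apart than the groups of any batch.

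For GFI1+ HE over GFI1+ IAHC at E11.5, the median log2 ratio of the 40 genes was -0.12 over 3 batches (-0.51 in GL53, 0.03 in GL58 and 0.08 in GL78), beside -0.08 over all measured genes. No gene was past 2-fold, where 0.917% of 9923 genes were higher and 0.917% lower. Kif11 was lowest: HE had 46.6, 93.2 and 35.9 CPM and IAHC 89.2, 113.5 and 52.05 CPM in GL53, GL58 and GL78, a log2 ratio of -0.57 ± 0.32 (SD, n = 3 batches) with HE lower in each batch. Nek2 (-0.54 ± 0.33) was also lower in each batch. Kif20a (0.26 ± 0.31) and Cdc25b (0.24 ± 0.29) were highest. At E10.5, in GL78 alone, the median was -0.19, with 38 of 40 genes below 0 and none past 2-fold, where 5.47% of 9577 genes were higher and 1.99% lower. Aurkb (106.9 against 164.3 CPM, log2 -0.62) and Mki67 (169.7 against 254.3 CPM, -0.58) were lowest and Kif23 (0.17) and Cdca3 (0.09) highest. Taken within the plates of that batch the median was 0.11, so the direction at E10.5 changed with how the cells were matched.

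For GFI1+ over GFI1- IAHC at E11.5 the median was 0.08 (-0.07 in GL53 and 0.26 in GL78), with no gene past 2-fold, where 0.493% of 10345 genes were higher and 1.76% lower. Ect2 (0.72 ± 0.72, n = 2 batches) and Prc1 (0.67 ± 0.80) were highest, and past 2-fold in GL78 only. Kif20a was lowest at -0.40 ± 0.06, followed by Racgap1 (-0.24 ± 0.07). Without clusters 6 to 10 the median was 0.43 and 1 gene was past 2-fold in both batches, with the share over all genes not computed. The mesenchyme sum of 2056 CPM given above belongs to the GFI1- IAHC cells of GL53, whose summed mitosis level was 5882 CPM with those clusters and 3692 CPM without them.

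Between stages, E11.5 over E10.5 GFI1+ HE had a median of -0.03 (-0.03 in GL58 and -0.09 in GL78), with no gene past 2-fold, where 2.48% of 9808 genes were higher and 1.99% lower. Cdc25b was highest: it had 54.5 and 27.8 CPM at E11.5 against 24.7 and 17.6 CPM at E10.5 in GL58 and GL78, a log2 ratio of 0.87 ± 0.34, followed by Cenpe, a kinetochore motor, at 0.75 ± 0.24. Kif4, a chromosome-bound motor, at -0.40 ± 0.43, and Cdca8 at -0.40 ± 0.11 were lowest. E11.5 over E10.5 GFI1+ IAHC, in GL78 alone, had a median of -0.29, with 36 of 40 genes below 0 and none past 2-fold, where 8.79% of 9797 genes were higher and 2.48% lower. Aurkb (88.8 against 164.3 CPM, log2 -0.88) and Kif20a (53.7 against 96.1 CPM, -0.83) were lowest, and Ect2 (0.44) and Cdc25b (0.31) highest. No plate held both stages, so stage and plate cannot be told apart, and both stage comparisons share their E10.5 groups with the comparisons of HE and IAHC. Of the related lists, the 24 measured DNA replication genes had lower medians than the 40 genes in both stage comparisons (-0.48 in HE and -0.52 in IAHC).

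**Figure D3:**
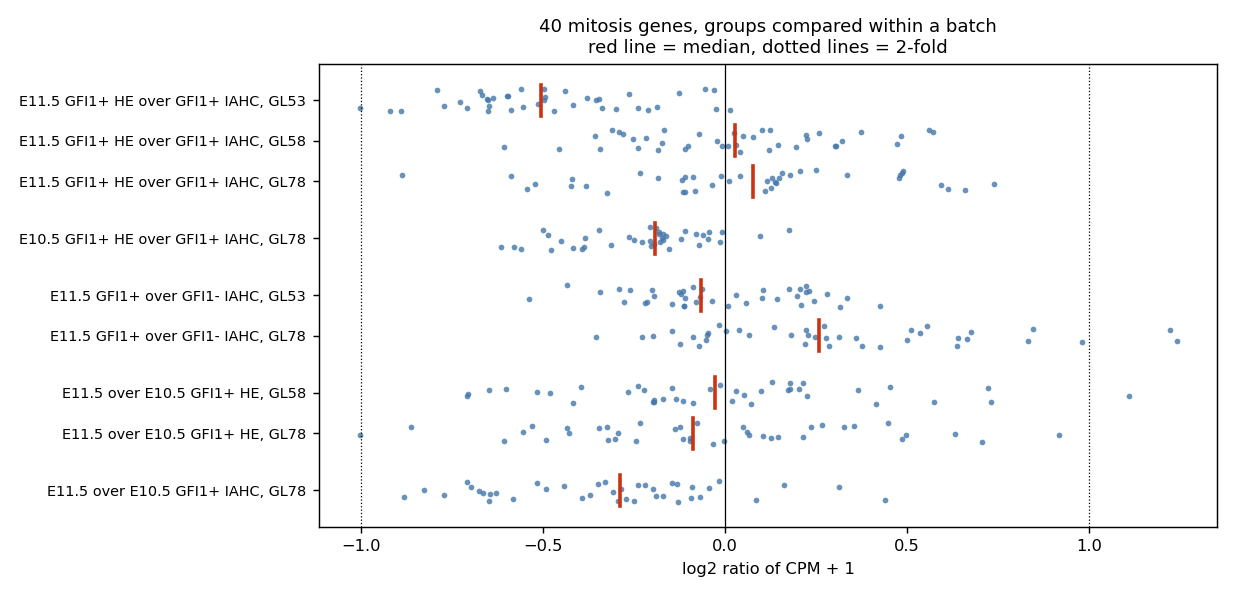
Blue points are the 40 genes, each row a comparison within 1 batch, the x axis the log2 ratio of CPM + 1, the red line the median and the dotted lines 2-fold. Medians lie between -0.51 and 0.26, and points beyond 2-fold occur in single batches only.

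Single cells showed more than the sums did. Between stages the median cells lay further apart than the sums: in GL78 the median E11.5 HE cell had 1385 CPM and the median E10.5 HE cell 3801 CPM, while the sums were 4939 and 5152 CPM. In GFI1+ IAHC of GL78 the median cells had 2324 and 5335 CPM, and the sums 4696 and 6003 CPM. The lower quartile was 504 CPM in E11.5 HE and 1226 CPM in E10.5 HE, and 709 and 2872 CPM in IAHC, whereas the upper quartiles were 7376 and 7818 CPM in HE and 8139 and 7693 CPM in IAHC. The upper quartiles of the stages thus lay closer together than the lower ones. In GL58 the order of the HE medians was the same, 6354 CPM at E11.5 and 9196 CPM at E10.5, with 19 and 18 cells.

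The shares of cells in G2/M moved the same way. Over all batches they were 32.6% of E11.5 GFI1+ HE (exact 95% binomial interval 25.6 to 40.1), 36.25% of E11.5 GFI1+ IAHC (30.2 to 42.7), 34.8% of E11.5 GFI1- IAHC (26.8 to 43.5), 49.5% of E10.5 GFI1+ HE (39.8 to 59.3) and 56.9% of E10.5 GFI1+ IAHC (47.4 to 66.1). Shares in G1 were 59.9%, 55.8%, 54.1%, 38.5% and 23.3% in the same order. The G1 share of E10.5 GFI1+ IAHC was the smallest (interval 15.9 to 32.03). These shares pool unlike batches, since GL53 held no E10.5 cells and GL69 no E11.5 cells. In E11.5 GFI1+ HE the G2/M share was 26.5% in GL53, 52.6% in GL58 and 40% in GL78. Within GL78, 16 of 40 E11.5 HE cells (24.9% to 56.7%) and 40 of 91 E10.5 HE cells (43.96%, 33.6 to 54.8) were in G2/M. Among GFI1+ IAHC cells of GL78, 32 of 89 at E11.5 (35.96%, 26.1 to 46.8) and 49 of 87 at E10.5 (56.3%, 45.3 to 66.9) were. The intervals count cells as if independent, so their overlap or distance does not compare the stages.

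**Figure D4:**
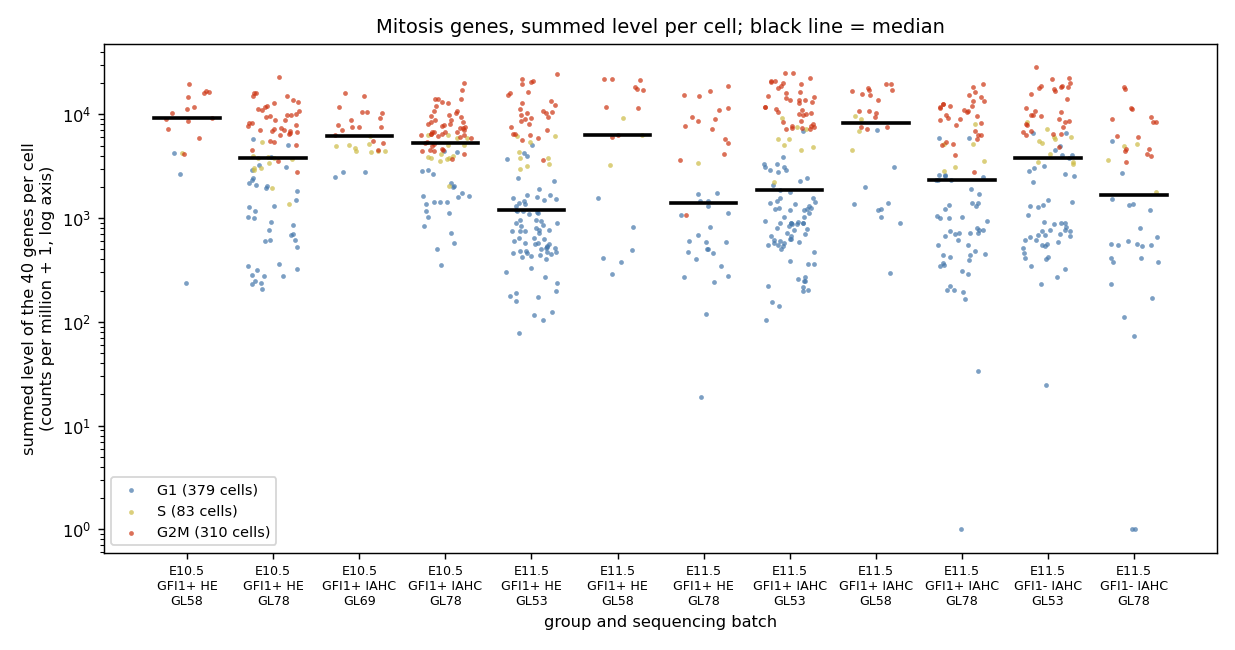
Each point is a kept cell of the 5 groups (772 cells), the y axis its summed level of the 40 genes (CPM + 1, log axis), colors are Cyclone phases and black lines medians by group and batch. Cells of E11.5 include many low cells in G1, and the medians run from 1187 CPM (E11.5 HE, GL53) to 9196 CPM (E10.5 HE, GL58).

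Within a phase the median ratios of the stages had opposite signs in G1 and G2/M cells, with phases that rest in part on these genes. Among G1 cells of GL78, 20 of 28 measured genes were past 2-fold lower in E11.5 than in E10.5 HE (23 and 39 cells), where 12.4% of 10081 genes were lower, and the median log2 ratio was -1.56. Mki67, the mark of cycling cells, had 5.25 and 45.5 CPM (log2 -2.89). Aurkb had no read in the 23 E11.5 cells and 11.6 CPM at E10.5, at least 67.6-fold lower against a floor of 3 counts for the group. Aurka had 12.8 and 7.94 CPM, the highest ratio at 0.63. In GFI1+ IAHC 9 of 30 were past 2-fold lower, where 7.18% of 10016 genes were, with a median of -0.64, Cdc25b at 2.86 against 18.9 CPM and Ccna2 at 18.2 against 66.8 CPM. Among G2/M cells the medians were 0.28 in HE (0.41 in GL58 and 0.13 in GL78) and 0.32 in IAHC of GL78. The G2/M shift of HE was thus small in GL78, the batch of the G1 cells. Over all measured genes the medians were -0.06 in HE and 0.06 in IAHC. Cenpe was at 1.09 in GL58 and 1.05 in GL78 for HE, and Ect2 at 1.14 and Cdc25b at 1.22 for IAHC. Between HE and IAHC at E11.5, 4 of 26 genes were past 2-fold lower in the G1 cells of HE in GL53 and GL78, where 3.50% of 10088 genes were, with Top2a, which untangles chromosomes, at -1.80 and -1.85, and the median over G2/M cells was -0.02.

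The third description followed the authors' 11 Louvain clusters, made from the same cells after cell cycle effects had been regressed out. The median cell of cluster 4, which the authors named HSC-primed HE, had the lowest summed level of all clusters at 653 CPM, and 62 of its 76 cells were in G1. Cluster 9 followed at 795 CPM in 12 cells. The other clusters ranged from 2317 CPM in cluster 0 to 6968 CPM in cluster 8, and cluster 2, named HSC by the authors, had 4399 CPM. The share of cells in G2/M was 17.1% (9.43 to 27.5) in cluster 4 and 37.6% (28.5 to 47.4) in cluster 2. Cluster 5 held 25 of 57 cells in S and cluster 8 held 12 of 25, so the clusters still differed in phase.

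In cluster 4 the values differed between GL53 and GL78, whose cells came mostly from different stages, so batch and stage cannot be told apart. Against cluster 2 the median log2 ratio of the genes was -1.92 in GL53 and -0.24 in GL78. Incenp, the scaffold of the chromosomal passenger complex, had 6.44 and 79.3 CPM in cluster 4 and 223.8 and 141.2 CPM in cluster 2 of GL53 and GL78 (log2 -4.92 and -0.82). Aurkb, the kinase of that complex, had 9.63 and 106.6 CPM in cluster 4 and 209.4 and 126.7 CPM in cluster 2. Both were far lower in cluster 4 of GL53 and closer to level in GL78, and Cenpf (135.5 and 109.7 against 179.4 and 104.9 CPM) differed little in either. Only Kif11, with 36.1 and 34.04 CPM in cluster 4 and 114.1 and 70.4 CPM in cluster 2, was past 2-fold lower in both batches, so 1 of 39 genes was called in either direction, where 24.3% of 10554 genes were. Against all other kept cells, Nek2 (-1.56 and -1.28) was the 1 of 40 called, where 6.52% of 10273 genes were lower, and the medians were -1.68 in GL53 and -0.22 in GL78.

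The 33 cells of cluster 4 in GL53 were E11.5 HE cells but for 1 of E11.5 GFI1+ IAHC, and those of GL78 were mostly E10.5 HE cells, of which 7 of 26 were in G2/M. The 1 IAHC cell of GL53 was in G2/M with a summed level of 25224 CPM, and it weighs on the GL53 values of cluster 4 above. With it cluster 4 of GL53 had a summed level of 1747 CPM and Aurkb at 9.63 CPM. The 32 HE cells alone had 898.2 and 0.0501 CPM. Of the 32 E11.5 HE cells of GL53, 1 was in G2/M. In GL78 a further 7 were E11.5 HE, of which 2 were in G2/M. Within GL78 the summed level of cluster 4 was 2526 CPM in those 7 cells and 4631 CPM in the 26 E10.5 HE cells, and E11.5 HE cells of cluster 4 had 898.2 CPM in GL53 and 595.9 CPM in the 3 cells of GL58. Within E11.5 GFI1+ HE of GL53, 38 of 40 genes were past 2-fold lower in the 32 cells of cluster 4 than in the other 81, where 17.3% of 10193 genes were lower, with a median of -2.70. Cenpf (-0.63) and Kif20b (-0.99) were the exceptions. Aurkb was lowest, with 0.0501 CPM in cluster 4 and 103.1 CPM in the rest. No read of Cdc25c was found in cluster 4, against 27.7 CPM, at least 184.1-fold lower against a floor of 3 counts for the group. Prc1 had 2.96 and 109.8 CPM. The summed level was 898 CPM against 5288 CPM. Within E10.5 GFI1+ HE of GL78 the summed level was 4631 CPM in cluster 4 and 5351 CPM in the rest, with Nek2 at -1.93, Bub1b at -1.06 and Cdc25b at 1.51. The 10 G2/M cells of cluster 4 in GL78 were not low: 10 of 40 genes were past 2-fold higher in them than in other G2/M cells of the batch, where 14.6% of 9822 genes were higher, with a median of 0.78. When cluster 4 was left out, the median of E11.5 HE over IAHC in GL53 went from -0.51 to -0.14.

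Among the small clusters, cluster 6 had 17 of 40 genes past 2-fold higher than the other kept cells of GL53, where 16.9% of 11001 genes were, led by Hmmr (141.8 against 42.95 CPM, log2 1.70) and Cdc25c (1.60). With TMM or DESeq2 size factors 8 were, and the share over all genes was not computed there. Cluster 9 had 33 of 40 past 2-fold lower in 10 cells of GL78, but 44.6% of 10106 genes were lower there and the median of all measured genes was -0.81. Cluster 8 differed by gene: Cenpf, a kinetochore and nuclear matrix protein, had 344.4 CPM against 86.1 CPM in the other cells of GL78 (log2 1.99), whereas Tpx2, which nucleates spindle microtubules, had 84.7 against 188.4 CPM (-1.14). In cluster 5 Cdc25b was lowest (-2.04 in GL53, -2.92 in GL69 and -0.53 in GL78) and Cdk1 highest (1.19, -0.43 and 0.05).

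**Figure D5:**
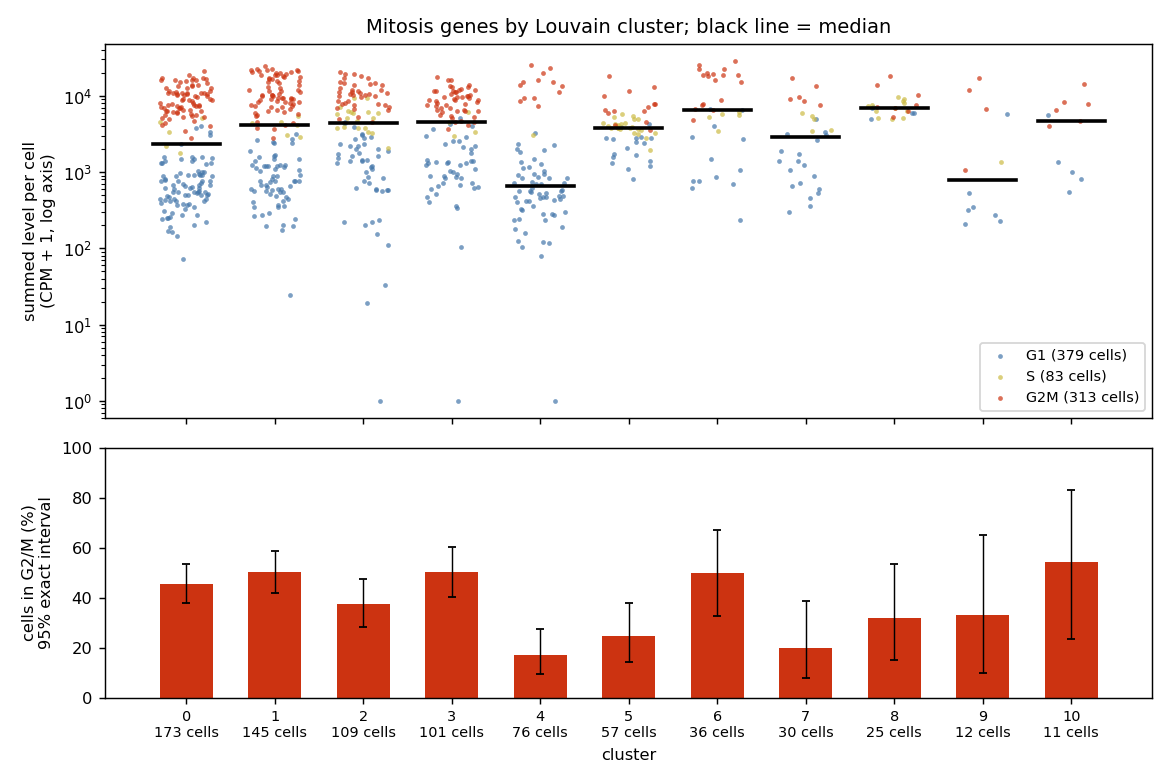
The upper panel shows each of the 775 kept cells by cluster, with its summed level of the 40 genes (CPM + 1, log axis), colors for Cyclone phases and black lines for medians. The lower panel gives the percentage of cells in G2/M with exact 95% binomial intervals, lowest in cluster 4 at 17.1%.

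Across cells the genes moved together. In each of the 12 groups and batches, each gene was set against the sum of the other 39 by rank. This is a description over cells of 1 batch, and their depth was not matched. The mean of Spearman's rho over the 12 was highest for Ccnb1, cyclin B1 (0.85, from 0.80 to 0.95), Plk1 (0.83), Ube2c (0.83) and Mki67 (0.81). It was lowest for Cdc25b (0.49), Bub3 (0.50), Nek2 (0.51) and Mad2l1 (0.54, from 0.02 to 0.70). The median over the 40 was 0.72, and over 9540 other genes 0.04. The closest genes outside the 40 were Hmgb2, a chromatin protein (0.82), Ckap2l (0.76), Tacc3 (0.76), Aspm (0.75), Ccnf (0.73), Cks2 (0.72), Spc25 (0.72), Kif22 (0.72), Knl1 (0.72) and Pimreg (0.72). Of these 10, 6 belong to the lists of spindle and kinetochore genes above. The lowest were Col18a1 (-0.32), Map1lc3b (-0.32) and Igf2 (-0.30). The rank relation of the summed level to total counts ran from -0.11 to 0.16 over the 12 groups, and to the number of genes with a read from 0.25 to 0.53. That to the mitochondrial fraction ran from -0.36 to 0.05.

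The sorter's signals were set against the summed level by rank within a group and batch, as a description over cells. Over the 10 groups and batches with index values, the rank relation with the surface level of NOTCH1 had a median of 0.23 (-0.09 to 0.41) and was above 0 in 9 of 10. NOTCH1 against total counts had a median of 0.03 (-0.14 to 0.25) and was above 0 in 8 of 10. In E11.5 HE of GL53 it was 0.25 against total counts and 0.39 against the summed level. The relation of cKIT with the summed level had a median of 0.18 and was above 0 in 7 of 10. It was above 0 in all HE groups (0.34 in E10.5 HE of GL78, and 0.29 in E11.5 HE of both GL53 and GL78). In E11.5 GFI1+ IAHC it was above 0 too (0.14 in GL53, 0.26 in GL58 and 0.12 in GL78). E11.5 GFI1- IAHC had -0.18 in GL53 and 0.21 in GL78, and both E10.5 IAHC groups were below 0 (-0.36 in GL69 and -0.17 in GL78). HE was gated as cKIT-, so in HE this signal varies within the negative gate. The medians were -0.08 for the Gfi1 reporter, -0.11 for CD41, 0.03 for JAG1, 0.04 for DLL4, 0.06 for NOTCH2, 0.01 for CD31 and -0.06 for CD45. Single values of these signals ran from -0.43 for the Gfi1 reporter to 0.51 for NOTCH2.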

How the data were processed

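Single cells were sorted by CD31, cKIT and the Gfi1:tomato reporter, and each gave a paired-end Smart-Seq2 library. Reads were aligned by the authors to mm10 with STAR 2.7.3 and counted per gene with HTSeq 0.9.1, per the submitters' processing notes. The values used are these deposited raw counts. No source used here states how strand and duplicates were handled. The fluorescence intensity of 9 sort signals, the mitochondrial fraction (0 to 1), the 11 Louvain clusters (Scanpy 1.4.4, cell cycle effects regressed out) and the Cyclone phases were deposited by the authors. A log-normalized table was not used. The 775 of 860 cells that the authors kept were analysed, and 92 spike-in rows held 0 reads. Symbols came from GENCODE M21 (45143 genes matched).

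CPM were computed from the summed counts of all cells of a group in 1 batch. Log2 ratios of CPM + 1 were taken within batches with at least 10 cells on both sides and averaged. HE over IAHC used 3 batches at E11.5 and GL78 at E10.5, GFI1+ over GFI1- IAHC used GL53 and GL78, and stage used GL58 and GL78 in HE but GL78 alone in IAHC. A gene was measured at 10 CPM in either group and called at 2-fold in every batch. An SD over batches describes their spread, and Poisson and binomial intervals (exact, 95%) cover counting error only, since reads carried no molecular identifiers. Called genes, or else the highest and lowest 2 to 4, were named, and a fold against a gene at 0 used 3 counts over the group as its limit. Cyclone was rerun with scran 1.30.0. The ratio code was tested on simulated data. Doublets were not called. Alternatives with edgeR 4.0.16 (TMM) and DESeq2 1.42.0 (size factors) are given at the end. The 40 genes and the related lists were chosen with earlier results of these data known.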

Additional observations from a re-analysis of the deposited data

Results flagged for a closer look

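Of the 40 genes, 1 had opposite directions at E11.5 and E10.5 in GFI1+ HE over GFI1+ IAHC in every batch used. This was Cdc25b, with log2 ratios of 0.24 and -0.17, which differ by 0.41. In the comparison of E11.5 with E10.5, 4 genes had opposite directions in HE and IAHC in every batch used: Cenpe (0.75 and -0.07, a difference of 0.81), Prc1 (0.29 and -0.33), Nusap1 (0.46 and -0.09) and Cenpf (0.14 and -0.25). With 1 to 3 batches a side these differences were not tested, and both contrasts share groups. Only the sign was asked for, with no fold. The share of all genes with opposite directions was not computed, so the counts of 1 and 4 are not a result about the mitosis genes.

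Cells outside the comparisons also held reads of the mitosis genes. The 3 kept E10.5 GFI1- IAHC cells, all in G2/M, had a summed level of 7920 CPM (exact 95% Poisson interval 7806 to 8035), where a count of 0 would allow up to 1.29 CPM. The 85 cells that the authors left out had 4581 CPM (4553 to 4609), where a count of 0 would allow up to 0.138 CPM. By group the left-out cells had 3603 CPM in E11.5 GFI1+ HE (21 cells), 3481 CPM in E11.5 GFI1+ IAHC (17 cells) and 5859 CPM in E11.5 GFI1- IAHC (46 cells), against 5043, 5806 and 5215 CPM in the kept cells.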

How the results depend on the processing

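No paired analysis was possible because replicate numbers only name cells in accession order. Of the medians, counts and shares by group, phase or cluster 4, most stayed within the spread between batches, or within 1.5 times for a count. For the exceptions the cause was not tested. A comparison with 1 batch has no spread of its own. For it the median spread of the comparisons of its kind with more batches was used. The share over all genes was not computed for the alternatives of this section, so their counts of called genes cannot be set against it. At 1.5-fold, 1 gene was called in E10.5 GFI1+ HE over GFI1+ IAHC, 1 in E11.5 over E10.5 HE and 10 in IAHC, 35 in G2/M over S, 6 in cluster 4 over cluster 2 and 7 in cluster 4 over other cells. Within plates the median of E10.5 HE over IAHC was 0.11, and the stage comparisons gave no value there. Without clusters 6 to 10, GFI1+ over GFI1- IAHC had a median of 0.43 and 1 call, E11.5 over E10.5 HE a median of 0.014, G2/M over S 1.42, and 31.2% of E11.5 GFI1- IAHC cells were in G2/M. The median of E11.5 over E10.5 HE was -0.16 with the mean over cells, 0.0897 with batches pooled and -0.19 with cells thinned to 50000 counts. With a pseudocount of 10 the medians were 3.02 for G2/M over G1, 1.79 for S over G1 and 1.15 for G2/M over S, and 0 genes were called in cluster 4 in both its comparisons. G2/M over S had a median of 1.24 with a pseudocount of 0.1, 1.31 with TMM, 1.25 with DESeq2 size factors, 1.20 with the mean over cells and 1.19 with batches pooled. Cluster 4 over cluster 2 had 0 calls with DESeq2 size factors, 0 with thinned cells and 9 with batches pooled, where cluster 4 over other cells had 5.

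Leaving out a batch gave 0 to 2 calls in GFI1+ over GFI1- IAHC (2 without GL53), a median of -0.0869 to -0.0271 and 1 to 1 calls in E11.5 over E10.5 HE, a median of 1.26 to 1.26 in G2/M over S, and G2/M shares of 43.96% to 77.8% in E10.5 HE (77.8% without GL78, in 18 cells) and 56.3% to 58.6% in E10.5 GFI1+ IAHC. Without GL78, 34 genes were called in cluster 4 over cluster 2 (1 to 34 over both batches) and 36 in cluster 4 over other cells (1 to 36). The share over all genes was not computed for GL53 alone, so these counts cannot be set against it. Of the alternatives chosen after seeing the data, phases without the 40 genes gave a G2/M over S median of 1.497, and leaving out cluster 4 gave 1 call in E11.5 over E10.5 HE.

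The labels tie no cell to a pool or embryo, so each group was handled as a single sample and no value here has a replicate error. Counting intervals cover reads and cells only. Phases and clusters were made from the same counts as the levels.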
